A study of Homo sapiens with 6 samples.

Results

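The promoters of long noncoding RNA (lncRNA) genes that lay in open chromatin were described in EndoC-βH3, a beta cell line of human origin. The members were the autosomal regions of the deposited ATAC-seq table that lay within 500 bp of a transcript start of a GENCODE lncRNA gene and more than 2 kb from every start of a protein-coding transcript. The rule used only position, and it found 3128 regions, which were 2.96% of the 105696 autosomal regions and stood in a table of 108542 regions in all. They were set beside 15883 protein-coding promoter regions, which lay within 500 bp of a protein-coding start, and beside 83123 distal regions, which lay more than 2 kb from such starts and over 500 bp from lncRNA starts. The remaining 3562 regions lay between these limits and were left out.

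ATAC-seq uses a transposase to insert sequencing adapters into open DNA, so reads collect at accessible promoters and enhancers. The line comes from human fetal pancreas and carries telomerase and SV40 large T transgenes, which both groups received and which a tamoxifen-dependent Cre recombinase can remove. The senescent group was treated with 4-hydroxytamoxifen for 3 weeks and the non-senescent group was a control without it, and both had the genotype label WT. Each group had 3 libraries of 100000 cells. The deposited values used here were the authors' mean over all 6 libraries, so no value for a single library or for either group exists in what follows, nothing below compares the groups, and the depth of each library is unknown from the table. As a check of the label, 7 of 8 beta cell genes had an open region at a start, the lowest mean signal among them being 1170 for PDX1, whereas 2 of 6 marker genes of other cells had a region, COL1A1 at 142 and PTF1A at 110. The beta cell gene without a region within 500 bp of a start was NKX2-2, although a region lay 1406 bp from one. Counts of genes without a region cover the table as used here.

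lncRNAs are transcripts without a long reading frame that are made by RNA polymerase II and are often spliced. Some act in the nucleus on neighbouring genes or on chromatin, some give rise to small RNAs, and for most no function is known. The promoters of many protein-coding genes lie in CpG islands, stretches rich in G and C that keep the CpG dinucleotides lost elsewhere in the genome, whereas enhancers are mostly poor in CpG. In beta cells, lncRNA genes are often found near genes of islet transcription factors.

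The lncRNA promoter regions ranged from dense CpG islands to sequence almost free of CpG. The following 300 bp windows at the middle of 5 of them show this range and were chosen after the values were seen. They were read from hg38 in the direction of the lncRNA, with every CpG in capitals. MIR17HG, the host of a microRNA cluster, lies at chr13:91347373-91347672 on the plus strand, and SNHG5, the host of small nucleolar RNAs, at chr6:85678721-85679020 on the minus strand. ENSG00000288925, at chr1:203290816-203291115 on the minus strand, is the strongest member whose sequence was not mostly repeated. ENSG00000289431, at chr20:21522098-21522397 on the minus strand, and BETALINC1, at chr20:21529966-21530265 on the plus strand, are neighbours beside the beta cell gene NKX2-2.
MIR17HG: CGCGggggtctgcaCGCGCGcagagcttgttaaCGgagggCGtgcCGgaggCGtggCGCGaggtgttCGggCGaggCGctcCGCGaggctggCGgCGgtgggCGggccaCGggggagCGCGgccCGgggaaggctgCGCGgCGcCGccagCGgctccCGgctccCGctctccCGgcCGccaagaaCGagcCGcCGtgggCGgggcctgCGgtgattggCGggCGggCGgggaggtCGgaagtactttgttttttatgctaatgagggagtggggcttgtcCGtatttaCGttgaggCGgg
SNHG5: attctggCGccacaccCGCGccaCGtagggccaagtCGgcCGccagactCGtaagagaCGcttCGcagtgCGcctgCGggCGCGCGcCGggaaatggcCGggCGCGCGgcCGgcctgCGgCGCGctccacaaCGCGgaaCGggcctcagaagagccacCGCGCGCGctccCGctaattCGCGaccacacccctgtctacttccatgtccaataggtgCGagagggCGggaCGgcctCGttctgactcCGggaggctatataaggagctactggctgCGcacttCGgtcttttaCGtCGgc
ENSG00000288925: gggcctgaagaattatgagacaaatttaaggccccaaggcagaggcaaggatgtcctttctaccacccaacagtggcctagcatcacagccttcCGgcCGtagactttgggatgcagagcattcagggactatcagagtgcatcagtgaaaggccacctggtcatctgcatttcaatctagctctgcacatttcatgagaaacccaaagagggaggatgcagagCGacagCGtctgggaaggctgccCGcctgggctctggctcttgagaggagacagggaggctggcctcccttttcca
ENSG00000289431: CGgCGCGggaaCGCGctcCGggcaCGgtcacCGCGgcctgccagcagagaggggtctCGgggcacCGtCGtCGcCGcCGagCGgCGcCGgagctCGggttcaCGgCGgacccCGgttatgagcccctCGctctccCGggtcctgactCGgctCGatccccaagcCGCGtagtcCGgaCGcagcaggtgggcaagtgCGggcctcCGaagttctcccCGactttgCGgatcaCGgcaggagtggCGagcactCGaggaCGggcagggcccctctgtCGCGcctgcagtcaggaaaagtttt
BETALINC1: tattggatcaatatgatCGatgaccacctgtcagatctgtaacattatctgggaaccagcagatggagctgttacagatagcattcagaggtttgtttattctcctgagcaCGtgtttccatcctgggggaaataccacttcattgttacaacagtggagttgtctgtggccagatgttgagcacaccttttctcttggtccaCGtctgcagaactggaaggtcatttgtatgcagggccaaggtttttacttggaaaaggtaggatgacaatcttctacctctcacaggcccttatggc
The windows of MIR17HG, SNHG5 and ENSG00000289431 held 44, 42 and 40 CpG, against 5 in ENSG00000288925 and 3 in BETALINC1. The share of G and C was 73.0%, 67.7% and 71.0% in the first set and 54.3% and 45.3% in the second. Their mean signals, in normalised read counts and in the order printed, were 1598, 1781, 5349, 4195 and 393, so that the highest and the lowest of the 5 both belonged to windows poor in CpG. These 5 do not stand for the members as a whole, among which CpG-island-like regions had the higher median signal.

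Mean signal is the number of normalised read counts in a region, averaged over the libraries and not divided by the width of the region. The median over the lncRNA promoter regions was 216 (95% interval of the median 200.3 to 231), between 667 (653.5 to 680.0) in the protein-coding promoter regions and 74.6 (73.7 to 75.5) in the distal regions. The members reached from 6.78 to 10814, with quartiles at 77.6 and 652. They had a median width of 755.5 bp, against 1071 bp and 484 bp. Per kb of region, the medians were 294 in lncRNA promoters, 583 in protein-coding promoters and 166 in distal regions, so that the members' median was 0.324 of the protein-coding median on mean signal and 0.504 of it per kb. Of the members, 530 (16.9%) had a mean signal under 50 and 472 (15.1%) had 1000 or more, whereas 34.2% of the protein-coding promoter regions and 2.79% of the distal regions reached 1000. These intervals cover the counting of regions alone, since regions are not replicates of the cells.

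**Figure D1:**
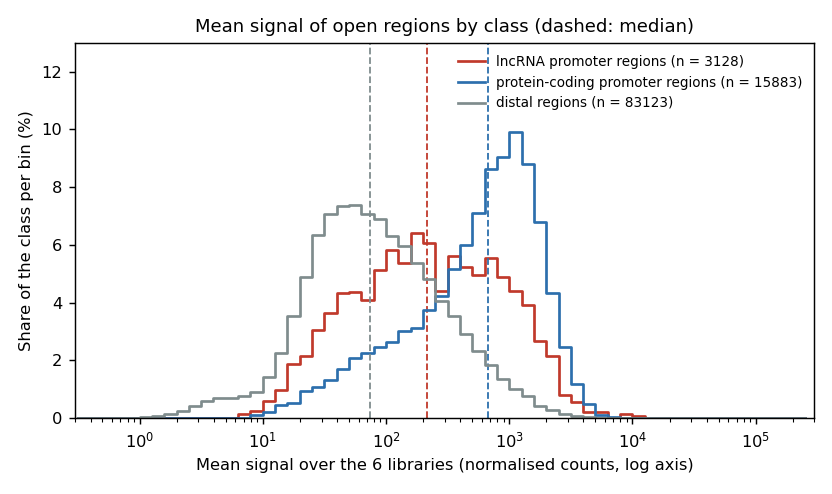
Share of each class (%) per bin of mean signal over the 6 libraries (normalised counts, log axis) for lncRNA promoter, protein-coding promoter and distal regions, with dashed lines at the medians. The lncRNA promoter regions, with a median of 216, spread over the whole range between the distal peak and the protein-coding peak.

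Base composition separated the classes at like signal as well. A region was counted as CpG-island-like when its central 300 bp had over 50% G and C and a ratio of observed to expected CpG above 0.6. This held for 1078 of the 3128 lncRNA promoter regions (34.5%, 95% Wilson interval 32.8 to 36.1), for 76.3% of the protein-coding promoter regions and for 4.26% of the distal regions. Among members with a mean signal under 50, 14.0% were CpG-island-like (11.3 to 17.2), and the share was higher in each band of signal, at 18.1%, 31.8%, 52.2% and, from 1000 upwards, 61.0% (56.5 to 65.3). In the same bands the share went from 49.4% to 87.5% in protein-coding promoters and from 2.87% to 14.4% in distal regions. The difference of the members to the protein-coding promoters was -35.4 percentage points in the lowest band (Newcombe interval -39.5 to -30.9) and -26.5 points in the highest (-31.03 to -22.1). They were above the distal regions by 11.1 points in the lowest band (8.40 to 14.3) and by 46.6 points in the highest (41.9 to 51.1). When the other classes were weighted to the members' spread over 20 bins of mean signal, 67.2% of protein-coding promoters and 6.67% of distal regions were CpG-island-like, with mean widths of 885 bp and 768 bp beside the members' 818 bp.

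**Figure D2:**
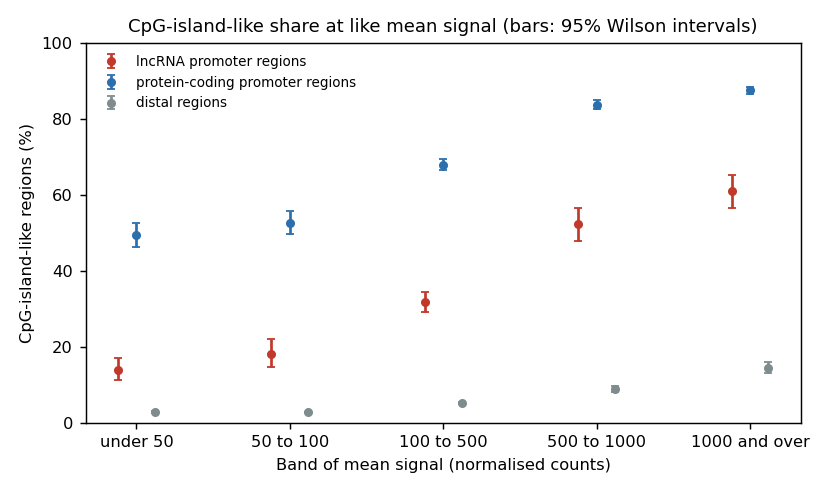
Share of CpG-island-like regions (%) in 5 bands of mean signal (normalised counts) for the 3 classes, with 95% Wilson intervals as bars. In every band the lncRNA promoter regions lie between the protein-coding promoters and the distal regions, from 14.0% to 61.0%.

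The CpG-island-like members formed the stronger and wider portion of the set. Their median mean signal was 502 (495 per kb) and their median width 989.5 bp, whereas the 2050 other members had a median mean signal of 145 (233 per kb) and a median width of 618.5 bp. The members with starts of lncRNA transcripts on both strands numbered 236, and 69.9% of these were CpG-island-like (63.8 to 75.4), against 31.6% (29.9 to 33.3) of the 2892 with starts on 1 strand only. Their median mean signals were 773 and 198 (665 and 280 per kb), and their median widths were 1096.5 and 734.5 bp. A wider region can reach more starts, and the part of width in these differences was not tested. Over the bands of distance to the nearest protein-coding start up to 100 kb, the CpG-island-like share lay between 35.5% and 40.6%. Beyond 100 kb, where 921 members lay, 25.6% were CpG-island-like (22.9 to 28.5).

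The middle of a member lay between -176.5 bp, upstream of the nearest lncRNA start, and 199 bp, into the transcript, in the middle 50% of the members. The window of the rule reaches equally far to either side and limits these distances, but it does not fix how they fall within it. The middle lay downstream of the start in 1564 members (50.0%, 48.2 to 51.8). The region held the start itself in 2258 members (72.2%), and these had a median mean signal of 314 (373 per kb), with 42.1% CpG-island-like. In the other 870 members the start lay up to 500 bp outside the region. These had a median mean signal of 93.5 (182 per kb), with 14.7% CpG-island-like, and a median width of 507 bp.

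**Figure D3:**
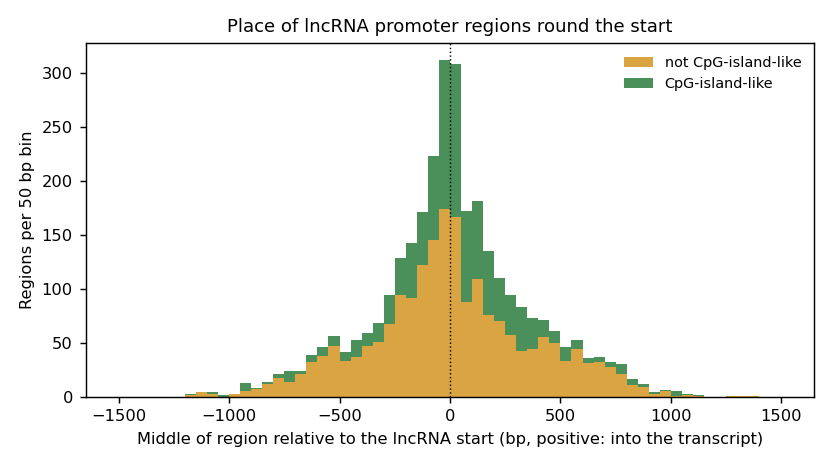
Number of lncRNA promoter regions per 50 bp bin of the distance (bp) from the lncRNA start to the middle of the region, positive into the transcript, split into CpG-island-like and other regions. Where a region held several starts, the start nearest to its middle was used. The quartiles lie at -176.5 and 199 bp, and the window of the rule reaches equally far to either side.

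Most of the members stood apart from protein-coding genes. The start lay outside protein-coding genes in 2428 members (77.6%), of which 38.4% were CpG-island-like (36.5 to 40.4). A further 533 (17.04%) started inside a protein-coding gene on the other strand, with a CpG-island-like share of 19.3% (16.2 to 22.9), and 152 inside one on the same strand. The number of members per protein-coding promoter varied over the autosomes. Chromosome 19, dense in protein-coding genes, had 7.28 lncRNA promoter regions per 100 protein-coding promoter regions, and chromosome 21 had 47.1, with 81 lncRNA promoter regions and 172 protein-coding promoter regions.

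The strongest members lay to a large part in sequence that occurs more than once in the genome. A region was counted as mostly repeated when over 50% of the 31-base words of its central 300 bp were found again on the autosomes or on X or Y. This held for 11 of the 15 strongest members, 20 of the strongest 50 and 34 of the strongest 100. Among all 3128 members it held for 402 (12.9%, 11.7 to 14.1). The share was 2.15% in protein-coding promoters and 12.9% in distal regions, and 7.90% in distal regions at the members' signal. From a mean signal of 1000 upwards it was 22.9% in members, 1.93% in protein-coding promoters and 8.77% in distal regions. Among the autosomes, the mean share of repeated words was highest in the members of chromosome 21, at 35.8%, against 8.22% on chromosome 19. Reads from repeated sequence cannot be placed with certainty. Their part in the signal and in the number of lncRNA promoter regions on chromosome 21 was not tested.

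The highest mean signal was 10814 (3974 per kb), at ENSG00000288187 on chromosome 21 (chr21:6216575-6219295). ROCK1P1, a copy of part of the kinase gene ROCK1 on chromosome 18, followed at chr18:106224-111100 with 10139 (2079 per kb) over 4877 bp. On chromosome 21, ENSG00000280800, ENSG00000280614, ENSG00000281181 and ENSG00000281383 had mean signals of 9270, 9207, 8800 and 6012. All of their words were repeated. The nearest annotated ribosomal RNA genes, RNA5-8SN2, RNA5-8SN3, RNA5-8SN1 and 5_8S_rRNA in the same order, lay 1120 to 1235 bp away. Whether these regions lie in ribosomal RNA sequence that the annotation does not list was not tested. ENSG00000289901 (chr13:109424131-109424335) was 205 bp wide and had a mean signal of 9314, which came to 45436 per kb, the highest value per kb among the members. Of its 31-base words 70% were also in the mitochondrial genome, and it was the only member with any such word. ENSG00000229422, LINC00957, LINC02021 and LINC02614, at 5607, 5306, 5171 and 5143, were the other mostly repeated regions among the 15.

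The 4 strongest members outside mostly repeated sequence were ENSG00000288925, LINC01353, ENSG00000288075 and LINC02018, with mean signals of 5349, 5047, 4914 and 4812 and values per kb of 3754, 4526, 2816 and 3011. In the latter 2, 31.5% and 46.7% of the words were repeated. ENSG00000288925 (chr1:203290254-203291678) and LINC01353 (chr1:203282235-203283349) had no repeated word and lay 13841 bp and 22170 bp from a start of BTG2, a p53 target gene that restrains proliferation. Neither was CpG-island-like, with CpG ratios of 0.23 and 0.13. After these came, with mean signals from 4691 to 3472, LINC01237, ENSG00000224090, ENSG00000289431, PCGF3-AS1, FAM86EP, LINC01843, GBAP1, ENSG00000289222, ENSG00000289340, ENSG00000288974 and OLMALINC, a list extended after the values were seen. ENSG00000288974 lay 59909 bp from FOXA2, a pioneer factor of endoderm, and ENSG00000289340 lay 19166 bp from FOS, a subunit of AP-1.

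Some members lay near the genes of beta cell transcription factors, and these were also picked after the values were seen. Of the 8 beta cell genes, 4 had a member within 100 kb of a start. The share of all protein-coding genes with such a member was not counted, so this is no result about beta cell genes. NKX2-2, a homeodomain factor that keeps beta cell identity, had a pair of them but no region within 500 bp of its own start. A region left out of the classes (chr20:21511888-21512658) lay 1406 bp from a start of NKX2-2, with a mean signal of 255. Of the pair, ENSG00000289431 (chr20:21520922-21523574) lay 6858 bp from a start of NKX2-2 with a mean signal of 4195 (1581 per kb) over 2653 bp. BETALINC1 (chr20:21529825-21530406) lay 15761 bp away with 393 (676 per kb) over 582 bp. The windows printed above belong to these regions, and the CpG ratios were 1.06 and 0.20. ENSG00000234595 (chr2:181683479-181684386) lay 2959 bp from NEUROD1, a helix-loop-helix factor of endocrine cells, with a mean signal of 1061 (1169 per kb). LINC00543 (chr13:27952865-27954839) lay 32865 bp from PDX1, which drives insulin transcription, with 1811 (917 per kb), and was 14476 bp from CDX2. PAUPAR (chr11:31826802-31827675), transcribed upstream of PAX6, had 144 (165 per kb) and lay 8841 bp from it.

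Short motifs of transcription factors were sought on both strands in the central 300 bp of each region. The GC box GGGCGG, bound by SP factors, was found in 31.1% of lncRNA promoters (29.5 to 32.7), in 62.3% of protein-coding promoters and in 7.78% of distal regions, with 17.2% over all autosomal regions. At the members' signal the other classes had 55.5% and 10.96%, and when the share of G and C was matched as well they had 35.2% and 25.1%. The ETS core CCGGAAG was in 5.75% of members, in 11.2% of protein-coding promoters, in 1.30% of distal regions and in 2.97% of all, and with signal and the share of G and C both matched the other classes had 6.92% and 3.33%. The NRF1 core GCGCATGCG was in 1.25% of members, in 1.60% of protein-coding promoters, in 0.0938% of distal regions and in 0.356% of all, and protein-coding promoters at the members' signal had 1.05%, or 0.849% with the share of G and C matched too.

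The AP-1, homeodomain and FOX motifs, known from enhancers, were least frequent in protein-coding promoters and most frequent in distal regions before the share of G and C was matched. The AP-1 motif TGANTCA was in 9.11% of lncRNA promoters (8.15 to 10.2), in 3.48% of protein-coding promoters, in 11.1% of distal regions and in 9.86% of all. The homeodomain core TAATTA was in 7.001%, 1.62%, 10.2% and 8.65%, and the FOX motif TGTTTAC in 6.65%, 2.22%, 9.51% and 8.25%. The CTCF motif was in 3.13% of members (2.58 to 3.803), in 0.661% of protein-coding promoters, in 2.79% of distal regions and in 2.49% of all. The distal share lay within the interval of the members, but at the members' signal it was 2.36%, below that interval. With signal and the share of G and C both matched, AP-1 was in 6.14% of protein-coding promoters and in 9.16% of distal regions, the homeodomain core in 4.72% and 6.37%, the FOX motif in 4.98% and 7.01%, and CTCF in 1.25% and 3.52%. For each of these 4 motifs the matched distal share lay within the interval of the members, which was 6.16 to 7.95 for the homeodomain core and 5.83 to 7.58 for the FOX motif, and the matched protein-coding share lay below it. The TATA box TATAAA was in 9.18% of members, in 3.69% of protein-coding promoters, in 18.0% of distal regions and in 15.3% of all, and with the share of G and C matched the other classes had 9.62% and 9.14%, both within the interval of the members (8.21 to 10.2). The CCAAT box was in 26.2% of members, in 24.1% of protein-coding promoters and in 30.2% of distal regions, with 29.0% over all, and with the share of G and C matched the other classes had 28.2% and 24.5%, on either side of the interval of the members (24.7 to 27.8). The remaining motifs were the MAF motif TGCTGAC in 6.94% of members, 3.66% of protein-coding promoters, 7.18% of distal regions and 6.65% of all, the RFX motif GTTGCCA in 4.76%, 3.29%, 5.06% and 4.77%, the HNF1 motif GTTAATNA in 3.64%, 1.08%, 6.19% and 5.27%, the CRE TGACGTCA in 0.959%, 1.62%, 0.266% and 0.499%, and the E2F motif TTTCCCGC in 0.831%, 1.96%, 0.342% and 0.618%. With signal and the share of G and C matched, the HNF1 motif was in 3.31% of protein-coding promoters and in 4.10% of distal regions, and the RFX motif in 4.61% and 5.45%, all within the intervals of the members (3.04 to 4.36 and 4.07 to 5.57). The matched shares were 5.06% and 7.20% for the MAF motif, 1.19% and 0.520% for the CRE, and 1.27% and 0.584% for the E2F motif. A match describes these letters and does not show that a factor was bound.

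The following 120 bp stretches show, with the motif in capitals and in the direction of the lncRNA, the strongest member with a match outside mostly repeated sequence for each of 3 motifs. The stretch with the CTCF match of ENSG00000284657 is chr1:25240002-25240121 on the plus strand. That with the AP-1 match of ENSG00000288974 is chr20:22523752-22523871 on the minus strand. That with the homeodomain match of LINC02779 is chr1:220487466-220487585 on the minus strand.
ENSG00000284657: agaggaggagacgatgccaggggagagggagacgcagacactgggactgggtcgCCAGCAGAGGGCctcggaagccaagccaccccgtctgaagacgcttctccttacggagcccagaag
ENSG00000288974: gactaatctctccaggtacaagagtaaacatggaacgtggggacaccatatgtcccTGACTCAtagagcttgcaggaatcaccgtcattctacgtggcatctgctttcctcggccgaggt
LINC02779: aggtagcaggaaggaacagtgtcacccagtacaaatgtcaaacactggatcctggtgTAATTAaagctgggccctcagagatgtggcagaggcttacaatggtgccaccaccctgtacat
The 3 regions had mean signals of 1450, 3500 and 2520 and lay 7010 bp, 59909 bp and 40240 bp from the nearest protein-coding start. The middle of the motif was 567 bp, 324 bp and 33 bp from the lncRNA start.

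Seen from the genes, an open promoter apart from protein-coding genes was present at a minority of lncRNA genes. Of 18390 autosomal lncRNA genes, 6163 (33.5%) had any region within 500 bp of a start, against 14239 of 18773 protein-coding genes (75.8%, 75.2 to 76.5). Of the 14939 lncRNA genes with a start more than 2 kb from protein-coding starts, 3087 (20.7%, 20.02 to 21.3) had a member. The share was 55.7% (45.8 to 65.2) for host genes of small RNAs and 48.8% (42.0 to 55.6) for genes with a name of the form given to pseudogenes. It was 26.5% (24.7 to 28.4) for LINC genes, 22.96% (20.6 to 25.5) for genes named antisense to another, and 17.7% (17.02 to 18.5) for genes that have only an identifier, which made up 1819 of the members. Genes named divergent to a protein-coding gene had any region in 94.1% of cases and a member in 16.3% of those with a start apart (10.9 to 23.6). Genes with 5 or more annotated transcripts had a member in 40.6% of cases (38.5 to 42.7) and genes with 1 transcript in 14.95% (14.3 to 15.7). For any region within 500 bp of a start, the shares were 58.6% and 26.5%. The chance of a start near a region grows with the number of starts. The part of this in these differences, and in that between lncRNA and protein-coding genes, was not tested.

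**Figure D4:**
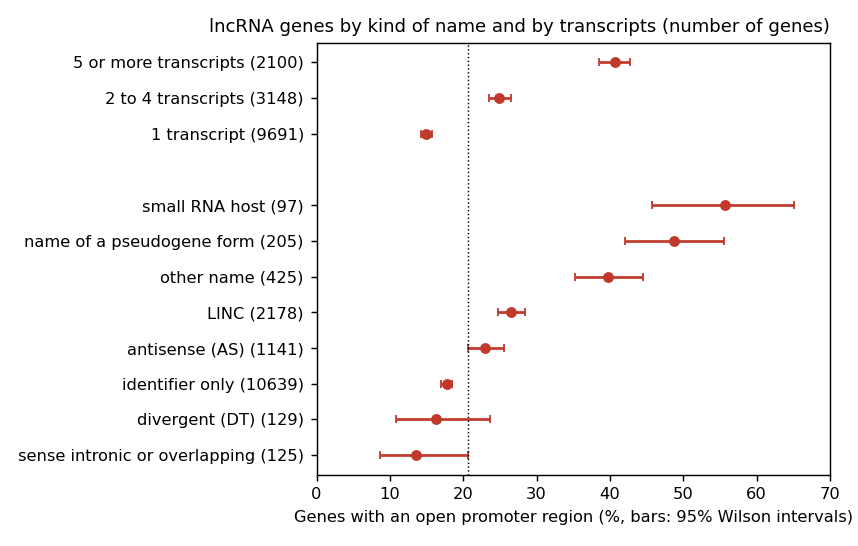
Share of lncRNA genes with an open promoter region (%) by kind of name and by number of annotated transcripts, among genes with a start over 2 kb from protein-coding starts, with 95% Wilson intervals as bars and a dotted line at the share of all such genes. Host genes of small RNAs are highest at 55.7%, and the share goes from 14.95% to 40.6% with the number of transcripts.

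The kinds of name differed in sequence too. The 95 members with a name of the form given to pseudogenes had a median mean signal of 680, and 74.7% of them were CpG-island-like (65.2 to 82.4). On average 46.5% of their 31-base words were repeated. The 70 members at host genes of small RNAs had a median mean signal of 259, with 58.6% CpG-island-like (46.9 to 69.4) and 7.03% of words repeated. The 278 members of antisense name were CpG-island-like in 24.5% of cases (19.8 to 29.8).

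Lists of lncRNA genes, which share some names, were then read one by one, each gene by its member of highest mean signal. On a chosen list of host genes of small RNAs, 34 of 55 genes had a member, and 26 of the 34 were CpG-island-like. Their median mean signal was 624 (578 per kb), against 263 (339 per kb) when all 3088 genes with a member were read in this way. Their range was from 12.2 at MIR124-1HG to 3436 at MIR9-1HG. The 70 members at host genes recognised by name, read region by region, had a median of 259 (274 per kb). Over all members it was 216 (294 per kb), so the list does not stand for all such hosts. MIR9-1HG, MIRLET7A1HG and MIR17HG, which carry microRNAs, had mean signals of 3436, 2979 and 1598. DANCR, SNHG15, SNHG5, SNHG29 and SNHG25, whose introns or exons hold small nucleolar RNAs, had 2042, 1804, 1781, 1744 and 1413. A further 11 of the 55 genes had a region only near a protein-coding start, among them GAS5, and 8 had none. Of the rest, 1 name did not match a lncRNA gene of the annotation and 1 gene was not on an autosome.

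On the list of lncRNAs taken as widely expressed, 16 of 31 genes had a member, and 10 of the 16 were CpG-island-like. Their median mean signal was 1115 (907 per kb). How widely they are expressed was not tested. The highest were DLEU2 at 3090, DLEU1 at 2135, DANCR at 2042, MALAT1 at 2010, CHASERR at 1855, LINC00667 at 1738, HCG11 at 1593 and NORAD at 1175. MALAT1 is a nuclear RNA of splicing speckles, and CHASERR lies beside CHD2, whose expression it limits. Per kb, CHASERR was the highest of these, at 2232, followed by DANCR at 1953. MIAT was the lowest of the list at 19.4. A further 10 genes had a region only near a protein-coding start and 1 had none. Of the rest, 3 names did not match a lncRNA gene of the annotation and 1 gene was not on an autosome.

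The lncRNAs linked to senescence and p53 had a member in 14 of 24 genes, with a median mean signal of 356 (364 per kb), and 9 of the 14 were CpG-island-like. MIR17HG had 1598 (1501 per kb), and NORAD, which binds Pumilio proteins and is induced by DNA damage, had 1175 (954 per kb). NEAT1, the scaffold of paraspeckles and a p53 target, had 1020 (860 per kb). MIR31HG had 818, TERC, the RNA template of telomerase, 746, LINC-PINT 421, MIR29B2CHG 367 and MEG3 344. MIR34AHG, the host of the p53-induced microRNA miR-34a, shared a region of 38.7 with LNCTAM34A, and PURPL had 32.4, the lowest of the list. DINOL and CDKN2B-AS1 had regions only near protein-coding starts and were no members. This held for 5 genes of the list, and 1 gene had no region. Of the rest, 3 names did not match a lncRNA gene of the annotation and 1 gene was not on an autosome.

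The islet list had a member in 9 of 24 genes, with a median mean signal of 188 (168 per kb), and 1 of the 9 was CpG-island-like. MIR9-1HG was the highest at 3436 (2406 per kb). LINC00261, which lies beside FOXA2 and is known from endoderm differentiation, had 1480 (654 per kb), LINC01370 had 688, and MIR7-3HG, the host of a microRNA abundant in endocrine cells of the islet, had 465. MIR9-3HG, LINC01512 and RMST followed at 188, 179 and 131, and SOX2-OT was the lowest at 8.99. A further 4 genes had a region only near a protein-coding start and 4 had none. The remaining 7 names of this list did not match a lncRNA gene of the annotation. BETALINC1 and PAUPAR, named above, were not on this list, so its median does not stand for islet lncRNAs in general.

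Imprinted lncRNA genes had a member in 5 of 24, with mean signals of 1976 at PEG13, 1056 at KCNQ1OT1, 547 at H19, 344 at MEG3 and 32.7 at KCNQ1DN, and 2 of the 5 were CpG-island-like. A further 4 had a region only near a protein-coding start and 9 had none. The remaining 6 names did not match a lncRNA gene of the annotation. KCNQ1OT1 is transcribed antisense to KCNQ1 from the paternal allele, and H19 and MEG3 from the maternal one, which these values cannot tell apart. Of the 18 lncRNA genes of the HOX clusters, 2 had a member, and these, HAGLR and HAGLROS, shared a single region with a mean signal of 238 (247 per kb). A further 4 had a region near a HOX gene start, and 12 had none.

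**Figure D5:**
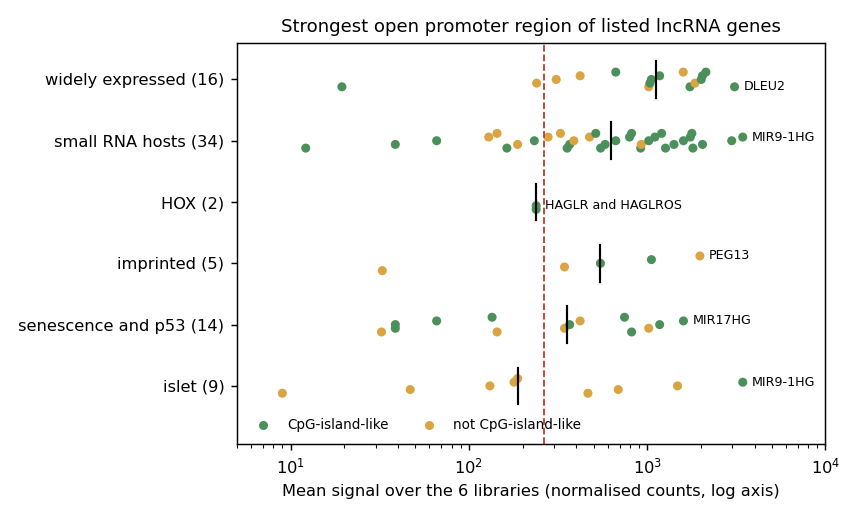
Mean signal over the 6 libraries (normalised counts, log axis) of the strongest promoter region of each listed lncRNA gene, with the number of genes, black bars at the list medians, a dashed line at the median of all 3088 genes with a member, read in the same way, and colour for CpG-island-like regions. The widely expressed list has the highest median, at 1115, and the islet list, with 9 genes, the lowest, at 188. The HOX points are 1 shared region. The lists share some genes, such as DANCR, MIR17HG and MIR9-1HG, and are not separate groups.

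Most genes had a single member. Of 3088 genes, 2824 (91.5%) had 1 member, 223 had 2 and 4 had 5 or more. LINC00511 had the most, with 14 regions over 302 kb of chromosome 17 and mean signals from 11.2 to 974. DRAIC had 6 over 130 kb, with mean signals from 248 to 1079, and FAM182B had 6, from 82.0 to 592. These genes were named after their counts were seen. LINC-PINT, MEG3 and MIR100HG of the lists above had 4 each.

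At the lower end, the weakest members were ENSG00000283259, LINC01198 and ENSG00000289129, with mean signals of 6.78, 7.40 and 7.47. The regions just inside the start window, 499 bp from starts of ENSG00000260071 and VAC14-AS1, had 55.2 and 42.6, and those just outside it, 502 bp from starts of LINC02560 and ENSG00000270571, had 2098 and 246. Just beyond the limit to protein-coding starts, at 2025 bp from FOXJ1 and 2058 bp from PCDH7, stood the regions of RNF157-AS1 and ENSG00000288940, with 1316 and 152. Just within it, at 1999 bp from ARRDC3 and 1998 bp from PRMT8, stood those of ARRDC3-AS1 and THCAT155, with 2386 and 50.0.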

How the data were processed

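The 6 ATAC-seq libraries (3 senescent and 3 non-senescent, grouped by their labels) entered through 1 deposited table. Its making is given by the study's methods: trimming of the paired-end reads by Trim Galore, Bowtie2 alignment on hg38, exclusion of duplicate and mitochondrial reads, correction of read ends for the transposase, MACS2 peaks, bedtools counts over all peaks joined together, and the authors' run of DESeq2. Tool versions are not given in the sources used here. The signal is the authors' deposited mean over the 6 libraries of counts divided by size factors, without an error and without correction for width. The remaining 5 columns hold the authors' own comparison of the groups (fold change, its error, test statistic, p-value and adjusted p-value). They were not used, so no comparison of senescent with non-senescent cells was made and no test was run.

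Region starts were taken to count from 0, as in BED files, and are printed from 1. The table does not state this, so coordinates and windows may be off by 1 base. 0 regions lay past a chromosome end of hg38. Starts were taken from GENCODE 44, from all transcripts of lncRNA genes (55770 on the autosomes) and from transcripts of protein-coding type. Composition and 14 motifs were read in the central 300 bp. The other classes were weighted to the members over 20 bins of signal, and in an alternative also over 5 bins of G and C share. Copies were counted as 31-base words, on either strand. Shares carry 95% Wilson intervals and differences Newcombe intervals, which cover counting error only. Medians carry binomial order-statistic intervals. The named regions were the 15 strongest, the 3 weakest, those at each distance limit, and up to 8 genes a list, besides those said to be chosen later. Some genes counted in the lists are not reported here by name. The members and 6 gene lists were chosen with earlier results of these data known. The distance, weighting and interval steps were tested on simulated data. Python 3.11.15, numpy 2.4.6, pandas 2.3.3 and scipy 1.17.1 were used. Alternatives were start windows of 250 and 1000 bp, limits of 1000 and 5000 bp, basic transcripts, a mean signal of at least 50, signal per kb, whole regions and 10 bins and, added after seeing the data, starts of all transcripts of protein-coding genes and removal of mostly repeated regions.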

Additional observations from a re-analysis of the deposited data

How the results depend on the processing

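The number of lncRNA promoter regions went from 2598 with a mean signal of at least 50 to 3876 with a start window of 1000 bp, beside 3128, and remained within 1.5 times throughout. The order of the classes in signal and in CpG-island-like share did not change. A value without an interval was read as unmoved within 10%. With start windows of 250 and 1000 bp, the median signal was 242 and 183, the median width 794 and 694.5 bp, the CpG-island-like share 37.6% and 29.7%, and the ratio of the median signal to that of distal regions 3.24 and 2.46, beside 2.89. With basic transcripts alone the first 3 values were 235, 781 bp and 37.1%. With a mean signal of at least 50 they were 315, 859 bp and 38.6%, the ratio was 0.435 to protein-coding promoters and 2.18 to distal regions, the CpG-island-like share of distal regions at the members' signal was 7.43%, and the mean width of protein-coding promoters, also at the members' signal, was 989 bp. Per kb the ratios were 0.504 and 1.77. Over whole regions, the CpG-island-like share was 31.6% in members and, at the members' signal, 5.59% in distal regions. With the starts of all transcripts of protein-coding genes, the ratio to protein-coding promoters was 0.375 and their CpG-island-like share 58.8% at the members' signal (68.5% unweighted). Without mostly repeated regions, the members' CpG-island-like share was 31.03%, the ratio to distal regions 2.44, and in distal regions at the members' signal the share was 5.31% (3.54% unweighted) and the mean width 698 bp. With limits of 1000 and 5000 bp and with 10 bins, none of these values moved.

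The differences in motif shares kept their sign in 299 of 308 values. When the share of G and C was matched too, the differences for the TATA box were -0.44 points against protein-coding promoters and 0.034 against distal regions, those for the CCAAT box -1.97 and 1.72, and those for the homeodomain core and CTCF against distal regions 0.63 and -0.39, each of the other sign than by signal alone. Over whole regions, NRF1 against protein-coding promoters was -0.36 and MAF against distal regions 0.37, and without mostly repeated regions NRF1 was -0.098. The cause was not tested. No paired analysis was possible because single libraries have no values of their own, for which reason no library was left out and no other normalisation was tried. The share of masked repeats was not run, since the reference used here is not masked.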
